A study of Homo sapiens with 6 samples.

Results

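The genes described here are 60 protein-coding genes of the short arm of human chromosome 20 (20p), out of 26255 gene symbols measured by RNA sequencing in MDA-MB-231. This human breast cancer cell line is of mesenchymal type and has no estrogen or progesterone receptor. They run from ZCCHC3 near the tip of the arm (GRCh37 chr20:278211-280965) to PYGB near the centromere (chr20:25228721-25278648). They were taken from a fixed list of symbols. This list was drawn up with the difference between the groups below already known, so the levels and fold changes of these genes are given as a description with no test. All 60 passed the filter on low values (at least 0.1 FPKM in 3 of 6 libraries), and 54 had a mean of 5 FPKM or more over the 6 libraries. FPKM is a level scaled by transcript length and by library size.

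The series compared cells carrying a control short hairpin RNA (shNT) with cells carrying a hairpin against GPR81 (shGPR81), the lactate receptor encoded by HCAR1, with 3 libraries per group. Hairpins were delivered to MDA-MB-231 cells by lentivirus, and the paper describes selecting clones resistant to puromycin. Both groups thus derive from the same parental line but were selected apart. A difference between the selected cells cannot be told apart from an effect of the hairpin. The sources do not name which of the hairpins against GPR81 the sequenced cells carried, and they do not say whether replicates came from separate cultures, so errors cover the spread between these libraries, which may be technical. The values are of bulk RNA, in which fewer cells expressing a gene and less RNA per cell cannot be told apart, and no DNA was measured.

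A chromosome arm carries many genes with unrelated functions, and these share a number of copies in the cell where the arm is intact. Cancer lines such as MDA-MB-231 have rearranged genomes in which arms, or parts of arms, can be present in more or fewer copies than a pair. The short arm of chromosome 20 carries housekeeping genes, such as the DNA replication clamp PCNA and the splicing protein SNRPB, beside genes for signalling and for specialised cells, such as the Notch ligand JAG1, the prion protein PRNP and a cluster of cystatins. Many of its housekeeping genes encode single subunits of complexes whose other subunits lie on other chromosomes.

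The libraries were of like depth, with relative depths of 1 to 1.07 recovered from the spacing of low FPKM values, while read numbers were not known for the members. HCAR1 was at 0.968, 1.02 and 1.36 FPKM in shNT and at 0.978, 0.891 and 0.396 FPKM in shGPR81. The groups overlapped (1.12 ± 0.212 against 0.755 ± 0.314 FPKM, SD, n = 3 each, exact two-sided permutation p = 0.2, where 0.1 is the smallest possible, and limma adjusted p = 0.38). The second group is therefore called the libraries labelled shGPR81. At this low level the overlap does not settle whether HCAR1 was reduced in these libraries. By RT-qPCR and western blotting, the paper found GPR81 significantly lower in its hairpin lines than in shNT cells. The line's mesenchymal markers VIM (3211 to 4443 FPKM), CD44, FN1 and TGFBI were high in all 6 libraries and ESR1, PGR and CDH1 were at 0. Against the marker list, SPARC was at 0.126 FPKM or less, and ERBB2 (10.6 to 12.6 FPKM), EPCAM (5.199 to 6.856 FPKM) and GATA3 (1.11 to 1.39 FPKM), listed as low or absent, were expressed.

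Among these genes are 4 pairs that start back to back, less than 1000 bases apart on opposite strands, so that 1 stretch of DNA lies in front of both genes. The stretches between the annotated starts are shown because each allows members with the same upstream sequence to be compared. They are read from GRCh37 on the plus strand, 5′ to 3′, and capitals mark the letters TGACG (the first letters of a cAMP response element), CCAAT and GGGCGG (a GC box) on either strand. The pairs were chosen after the values were seen.
CENPB and CDC25B, chr20:3767388-3767418: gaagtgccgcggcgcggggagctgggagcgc
PCNA and CDS2, chr20:5107273-5107524: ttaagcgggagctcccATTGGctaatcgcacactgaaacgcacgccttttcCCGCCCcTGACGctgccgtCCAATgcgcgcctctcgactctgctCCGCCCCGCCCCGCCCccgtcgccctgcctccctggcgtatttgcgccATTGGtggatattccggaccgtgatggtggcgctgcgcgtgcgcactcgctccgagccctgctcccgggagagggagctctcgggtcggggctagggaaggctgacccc
TRMT6 and MCM8, chr20:5931205-5931297: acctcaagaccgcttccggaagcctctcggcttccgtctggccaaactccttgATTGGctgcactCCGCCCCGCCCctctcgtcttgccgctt
ESF1 and NDUFAF5, chr20:13765566-13765652: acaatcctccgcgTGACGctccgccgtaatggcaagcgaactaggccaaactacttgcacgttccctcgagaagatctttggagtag

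These stretches were short and rich in G and C, with 80.6% G and C between CENPB and CDC25B and 54.0% between ESF1 and NDUFAF5. In the RefSeq promoter windows (GRCh38.p14, 250 bases before to 50 after the start, both strands searched), 51 of the 60 members were found. Their median G and C content was 68.3%, against 65% over 11071 tested genes, and 35 of the 51 (68.6%) held the GC box, against 69.1% of the tested genes. TATAAA was in 0 of the 51 and in 5.8% of the tested genes, and CCAAT was in 31.4% and 36.6%. The full cAMP response element TGACGTCA, whose letters also hold TGACG, was in 2 of the 51 (3.9%) and in 3.3% of the tested genes. TGACG was in 41.2% and 33.8%. The E box CACGTG was in 9 of the 51 and in 1109 of the 11071 tested genes.

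To determine the size of the shift, each gene's log2(FPKM + 0.1) was compared between the groups with limma across the 14349 genes tested. The members had a median log2 fold change of -0.53 (libraries labelled shGPR81 over shNT) and a median FPKM ratio of 0.692, and the quartiles of the log2 fold changes were -0.60 and -0.45. Over all genes tested the median was 0.01. Of the 60 members, 58 were lower in the libraries labelled shGPR81, and in the same 58 every shGPR81 library was below every shNT library. Over all genes tested, 12.7% were lower with groups apart in this way. An adjusted p under 0.05 with a lower level was reached by 48 members, where the background was 3.07%, and 18 of these also passed a fold change of 1.5 and were called lower, where the background was 1.59%. No member was called higher, against 0.955% of all genes tested. The list was drawn up on this contrast, so nothing is read from these counts beyond the description. The number called was 12 without shGPR81 replicate 1 and 22 without shNT replicate 1.

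The shift lay close to the fold threshold, which is a log2 of -0.585. CRLS1, the cardiolipin synthase, was just past it at -0.59 (SE 0.090) and was called, and RBCK1, a subunit of the linear ubiquitin ligase, was just short of it at -0.58 (SE 0.082) and was not. A further 30 members passed the adjusted p without the fold. GPCPD1 passed the fold at -0.64 but not the adjusted p, with an SE of 0.16.

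Next, the evenness of the shift was examined from library to library. Relative to the mean of the shNT libraries, the members' median log2 level was -0.02, 0.001 and 0.02 in the 3 shNT libraries and -0.54, -0.53 and -0.50 in those labelled shGPR81. The 3 medians of a group lay close together, and the groups lay apart. Among the shNT libraries the members' quartiles were widest in replicate 1 (-0.14 and 0.07) and narrowest in replicate 2 (-0.03 and 0.05). In the same libraries the median of 13413 genes on other chromosomes was -0.002, 0.007 and 0.006 for shNT and 0.015, 0.011 and 0.013 for shGPR81.

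**Figure D1:**
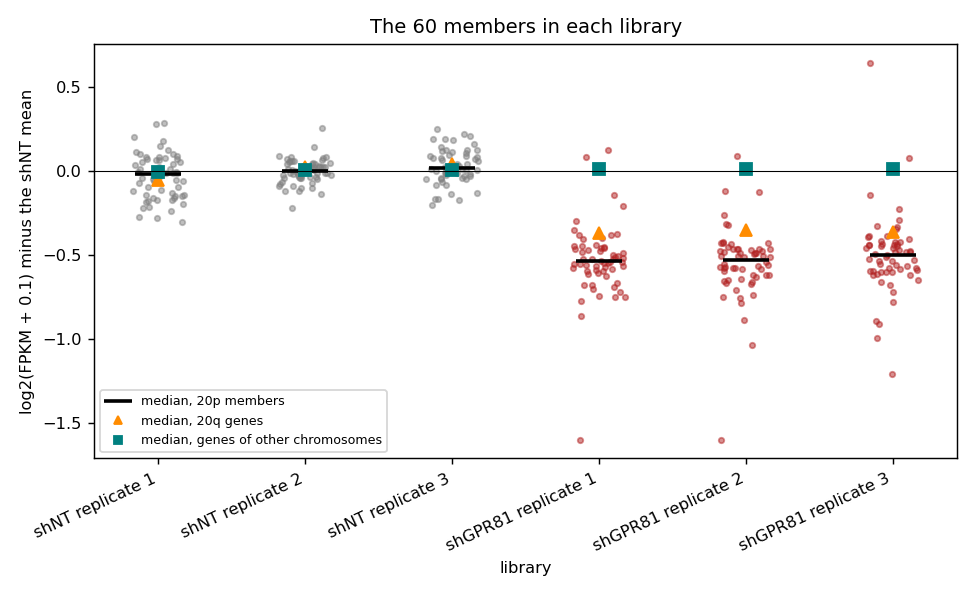
Each point is 1 of the 60 members in 1 library (y axis, log2(FPKM + 0.1) minus the mean of the 3 shNT libraries), black bars are the members' medians, triangles the medians of 270 genes on 20q and squares those of 13413 genes on other chromosomes. The members' medians were near 0 in shNT and between -0.54 and -0.50 in the libraries labelled shGPR81, where the squares lay near 0.

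The spread among members was small. Of the 60, 53 (88.3%) had a log2 fold change between -0.75 and -0.25, a range that held 9.61% of all genes tested. It also held 57.4% of the 61 other tested genes on 20p and 67.0% of the 270 on the long arm (20q). At 5 FPKM or more it held 92.6% of the members, 64.3% of the other 20p genes and 80.75% of the 20q genes. Within 2 SE of the members' median lay 49 members. In the 54 members at 5 FPKM or more the SD of the log2 fold changes was 0.134, their median SE was 0.0732, and the values ran from -0.90 (NDUFAF5) to -0.13 (PRNP), all below 0. The 6 members under 5 FPKM held both values above 0 and the lowest value of all. Outside 2 SE of the median were 11 members, of which 4 were further below 0 (KIF16B, NDUFAF5, JAG1, ESF1) and 7 nearer to or above 0 (PANK2, NXT1, SLC23A2, BTBD3, PRNP, PLCB4, RASSF2).

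To examine position, the members were put in order along the arm and summarised in bins of 5 Mb. From the tip inward the medians were -0.52 (31 members), -0.52 (8 members), -0.84 (5 members), -0.50 (11 members) and -0.59 (4 members), and the last one held PYGB alone at -0.43. Among members the bin at 10 to 15 Mb was the lowest. With the other tested 20p genes included, that bin held 10 genes and was again the lowest, at a median of -0.60. Taken alone, its 5 other tested genes had a median of -0.47, against -0.52 for the 9 at 15 to 20 Mb. The members at 10 to 15 Mb were MKKS, JAG1, BTBD3, ESF1 and NDUFAF5. Of these, BTBD3 was nearer to 0 than the members' median and JAG1, ESF1 and NDUFAF5 were further from it. Across the 60 members the log2 fold change had a Pearson correlation of -0.11 and a Spearman correlation of 0.06 with position, as a description over genes that share the same 6 libraries.

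**Figure D2:**
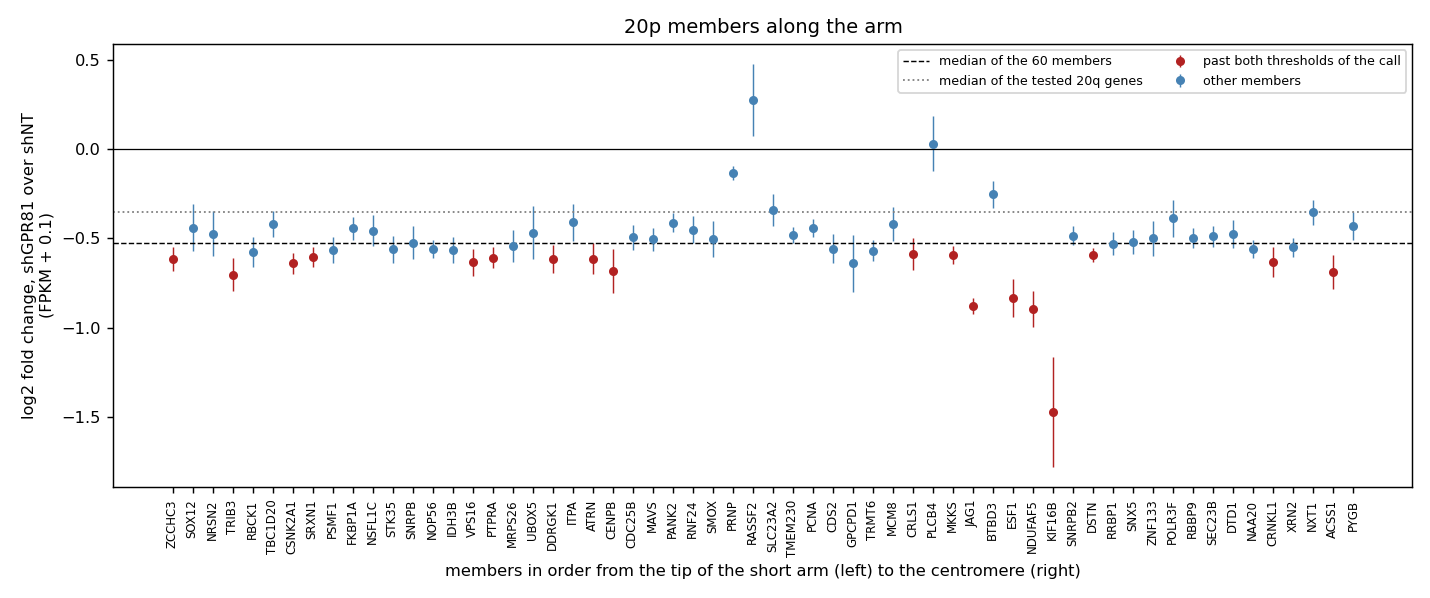
Log2 fold change of each member (y axis, point, with its SE as a bar) in order from the tip of the short arm to the centromere (x axis). Red points passed both thresholds of the call. Most members lie near the dashed line at their median of -0.53, with PRNP, RASSF2 and SLC23A2 side by side above it and JAG1, ESF1, NDUFAF5 and KIF16B below it.

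The first and the last member along the arm were both lower. ZCCHC3, an RNA-binding zinc-finger protein, was at 10.6, 10.3 and 10.3 FPKM in shNT and at 6.92, 6.53 and 6.84 FPKM in the libraries labelled shGPR81 (log2 fold change -0.61, SE 0.065). PYGB, the brain form of glycogen phosphorylase, was at 82.6, 95.1 and 102.9 FPKM in shNT and at 68.3, 68.1 and 71.0 FPKM in those labelled shGPR81 (-0.43, SE 0.080). In both genes the groups did not overlap, and in PYGB the shNT libraries were the more widely spread. PYGB overlaps the gene ABHD12, so reads of the shared stretch could be counted to either.

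Expression level was examined by splitting the members in 3 by mean FPKM. The 20 highest (44.6 to 469.7 FPKM) had a median log2 fold change of -0.51 with an SD of 0.102. The middle 20 (10.1 to 39.9 FPKM) had a median of -0.60, and the 20 lowest (0.107 to 9.92 FPKM) one of -0.50 with an SD of 0.338. Of the called members, 2 were in the highest, 11 in the middle and 5 in the lowest group. The share called was 30% over all 60 members and 1.59% over all genes tested. Across members, the log2 fold change had a Pearson correlation of 0.08 with the log2 level in shNT and of -0.01 with the log2 exon length.

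**Figure D3:**
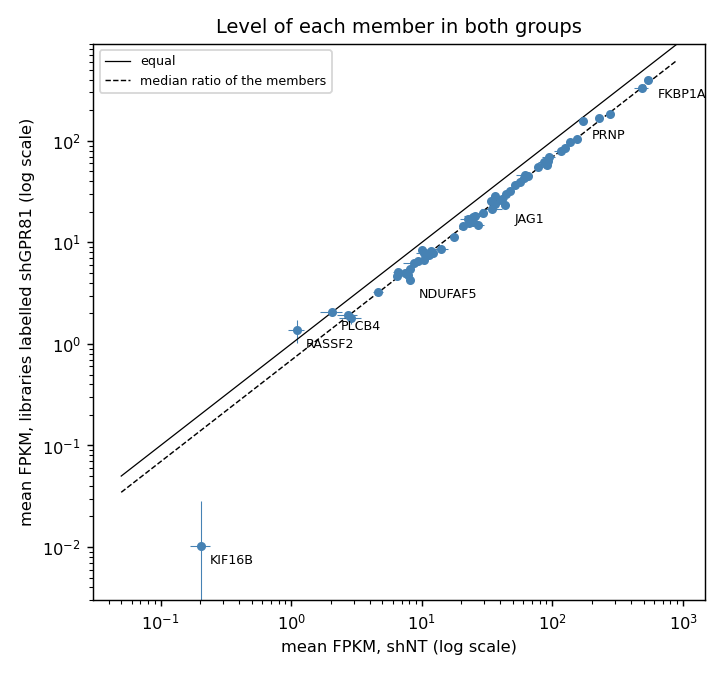
Mean FPKM of each member in the libraries labelled shGPR81 (y axis, log scale) against shNT (x axis, log scale), with bars for the SD of 3 libraries. Bars that reach 0 are cut at the axis. Points follow the dashed line at a ratio of 0.692 from a few FPKM up to FKBP1A, with PRNP, PLCB4 and RASSF2 near the line of equality.

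Among the most abundant members, FKBP1A, the prolyl isomerase FKBP12 that binds rapamycin, was at 499.2, 559.5 and 565.8 FPKM in shNT and at 395.2, 384.7 and 414.2 FPKM in the libraries labelled shGPR81 (log2 fold change -0.44, SE 0.064). SNRPB, the Sm protein B of the spliceosome core, was at 415.2, 509.4 and 524.6 against 334.1, 321.1 and 347.8 FPKM (-0.52, SE 0.092). In both genes shNT replicate 1 was the lowest of its group and still above every library labelled shGPR81. DSTN, the actin-depolymerising protein destrin, was at 274.0, 276.4 and 273.9 against 181.9, 183.5 and 181.3 FPKM (-0.59, SE 0.041). Its libraries differed within a group by less than 3 FPKM. A stretch of 13.3% of the longest FKBP1A transcript and 4.0% of that of DSTN is near-identical (97% or more over at least 75 bases) to another gene, so a share of their reads could have been counted elsewhere.

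Genes of DNA replication and chromosomes numbered 4, and their median was -0.47. PCNA, the sliding clamp of the replication fork, was at 240.8, 221.7 and 222.1 FPKM in shNT and at 165.8, 165.7 and 172.2 FPKM in the libraries labelled shGPR81 (log2 fold change -0.44, SE 0.051). The lowest shNT library was well above the highest library labelled shGPR81. CENPB, which binds centromeric alpha-satellite DNA, was at 28.1, 34.9 and 40.6 against 21.1, 20.9 and 21.8 FPKM (-0.68, SE 0.12). Its shNT libraries were spread widely, and shNT replicate 1 was nearest to the other group. MCM8, a helicase subunit of homologous recombination, was at 26.01, 21.98 and 20.09 against 17.7, 16.8 and 16.1 FPKM (-0.42, SE 0.098), with groups apart. CDC25B, the mitotic phosphatase, had a log2 fold change of -0.49.

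RNA processing and transport had 10 members, all lower and with groups apart, with a median of -0.56. Of these, 9 reached an adjusted p under 0.05 and 3 were called. Over all 60 members these shares were 80% and 30%, and over all genes tested 3.07% and 1.59%. The lowest was ESF1, a nucleolar protein of ribosomal RNA processing, at 30.2, 26.6 and 23.7 FPKM in shNT and 15.6, 16.0 and 13.4 FPKM in the libraries labelled shGPR81 (log2 fold change -0.84, SE 0.11). NXT1, the cofactor of the mRNA export receptor NXF1, was the nearest to 0, at 36.0, 35.3 and 37.4 against 27.9, 26.2 and 31.1 FPKM (-0.35, SE 0.071). Even there, no library labelled shGPR81 reached the shNT libraries. POLR3F, a subunit of RNA polymerase III, was at 11.3, 8.87 and 11.03 against 7.80, 8.28 and 7.56 FPKM (-0.39, SE 0.10). Its groups came within 1 FPKM of each other, and it overlaps the gene DZANK1.

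Mitochondria and metabolism had the most members, 13, with a median of -0.56, 10 of them at an adjusted p under 0.05 and 4 called. The shares over all 60 members were 80% and 30%, and over all genes tested 3.07% and 1.59%. NDUFAF5, an assembly factor of respiratory complex I, was at 8.56, 7.54 and 8.15 FPKM in shNT and at 4.78, 3.89 and 4.25 FPKM in the libraries labelled shGPR81 (log2 fold change -0.90, SE 0.10). ACSS1, the mitochondrial acetyl-CoA synthetase, was at 7.28, 7.80 and 8.25 against 5.32, 4.58 and 4.48 FPKM (-0.69, SE 0.095). The groups of both genes were apart, and the ratio of NDUFAF5 was further from the members' median than 2 SE while that of ACSS1 was not. GPCPD1, which splits glycerophosphocholine, was at 3.48, 2.67 and 2.45 against 2.01, 1.61 and 1.76 FPKM (-0.64, SE 0.16). PANK2, the mitochondrial pantothenate kinase of coenzyme A synthesis, was at 34.4, 32.6 and 35.2 against 26.2, 25.4 and 25.1 FPKM (-0.41, SE 0.053). ITPA, which removes inosine triphosphate, was at 51.7, 67.6 and 65.1 against 46.4, 42.8 and 48.7 FPKM (-0.41, SE 0.11). Its groups were apart, with shNT replicate 1 closest to the libraries labelled shGPR81.

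Membrane traffic and the cytoskeleton had 9 members with a median of -0.52, all lower, 8 at an adjusted p under 0.05 and 3 called. Against these stand 80% and 30% of all 60 members, and 3.07% and 1.59% of all genes tested. VPS16, a core subunit of the HOPS and CORVET tethering complexes of the endosome and lysosome, was at 18.4, 16.7 and 17.6 FPKM in shNT and at 11.8, 10.3 and 11.7 FPKM in the libraries labelled shGPR81 (log2 fold change -0.63, SE 0.076). KIF16B, a kinesin that carries early endosomes, was barely expressed, at 0.192, 0.176 and 0.245 FPKM in shNT, and was listed at 0, 0 and 0.0309 FPKM in those labelled shGPR81. Its log2 fold change of -1.47 (SE 0.31) was set by the pseudocount, since it became -0.25 with 1 FPKM added and -3.73 with 0.01 FPKM, and its call was lost when any 1 library was left out. VPS16 shares a stretch of the chromosome with the overlapping gene PCED1A, which was at -0.19.

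Transcription and signalling had 11 members with a median of -0.51, and both members above 0 were among them. JAG1, a ligand of Notch receptors, was at 43.27, 43.97 and 43.33 FPKM in shNT and at 23.9, 23.5 and 23.4 FPKM in the libraries labelled shGPR81 (log2 fold change -0.88, SE 0.045). Within each group the libraries differed by less than 1 FPKM, and the gene's value lay furthest from the members' median in units of its SE on the lower side. TRIB3, a pseudokinase of the stress response, was at 12.7, 13.6 and 16.0 against 8.47, 8.77 and 8.495 FPKM (-0.70, SE 0.093), and CSNK2A1, the catalytic alpha subunit of casein kinase 2, at 90.1, 89.8 and 91.3 against 53.8, 60.5 and 60.04 FPKM (-0.64, SE 0.058). In both genes the groups lay far apart. A stretch of 9.9% of the longest CSNK2A1 transcript is near-identical to the retrogene CSNK2A3 and a further gene.

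Ubiquitin, UFM1, proteasome and folding genes numbered 7, all lower, with values from -0.62 (DDRGK1, an adaptor of UFM1 conjugation at the endoplasmic reticulum) to -0.45 (RNF24, a RING-finger protein) and a median of -0.57. The 6 members in no other group ran from -0.61 (ATRN, attractin) to -0.13 (PRNP) with a median of -0.49.

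**Figure D4:**
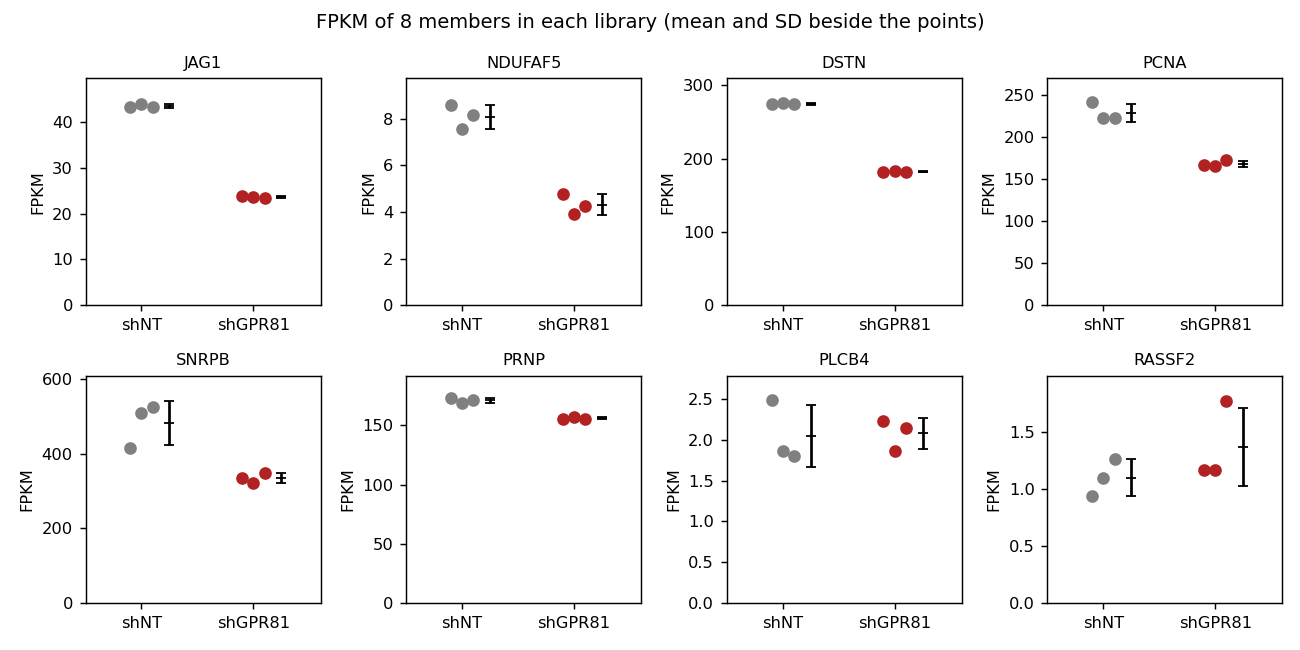
FPKM (y axis, from 0) of 8 members in the 3 shNT and the 3 libraries labelled shGPR81, with the mean and SD beside the points. JAG1, NDUFAF5, DSTN, PCNA and SNRPB show groups that are well apart, PRNP groups that are close together (ratio 0.911), and PLCB4 and RASSF2 groups that overlap.

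To determine which members stood apart from the shift, those nearest to or above 0 were examined. PRNP was at 172.9, 168.8 and 171.7 FPKM in shNT and at 155.5, 156.9 and 155.2 FPKM in the libraries labelled shGPR81 (ratio 0.911, log2 fold change -0.13, SE 0.041). The groups did not overlap, but the difference was small beside the members' median. RASSF2, a Ras-association domain protein, was at 0.941, 1.095 and 1.26 against 1.17, 1.17 and 1.77 FPKM (0.28, SE 0.20). SLC23A2, a sodium-dependent vitamin C transporter, was at 6.92, 6.71 and 5.93 against 5.29, 5.21 and 4.85 FPKM (-0.34, SE 0.089). These 3 genes are consecutive members (chr20:4666996-4990939), and the members on either side were SMOX, the spermine oxidase, at -0.50 and TMEM230 at -0.48. RASSF2 overlapped between groups, and its log2 fold change was 0.09 without shGPR81 replicate 3.

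PLCB4, a phospholipase C that acts downstream of G proteins, was at 2.49, 1.86 and 1.80 FPKM in shNT and at 2.23, 1.86 and 2.15 FPKM in the libraries labelled shGPR81 (log2 fold change 0.03, SE 0.15). The groups overlapped entirely, and its sign turned with the processing, from -0.05 to 0.17. BTBD3, a BTB-domain protein that orients dendrites in neurons, was at 10.7, 9.39 and 10.1 against 8.69, 8.38 and 8.20 FPKM (-0.25, SE 0.074). Its groups were apart. BTBD3 lies between JAG1 and ESF1, so members at -0.88, -0.25 and -0.84 follow each other along the arm.

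The pairs with a shared upstream stretch were then compared. ESF1 and NDUFAF5, whose starts are 88 bases apart, were at -0.84 (SE 0.11) and -0.90 (SE 0.10), a difference of 0.06. PCNA and CDS2, a CDP-diacylglycerol synthase, start 253 bases apart and differed by 0.12, TRMT6 and MCM8 start 94 bases apart and differed by 0.15, and CENPB and CDC25B start 32 bases apart and differed by 0.19. Both genes of a pair were lower in each case, as were 58 of the 60 members, and each difference was less than 2 times the larger SE. The quartiles of all members were -0.60 and -0.45, so small differences were common among members whether paired or not. Whether a shared stretch plays a part was not tested, and nothing is read from these pairs. Members paired in this way with genes outside the list differed by 0.07 (SNX5 and MGME1) and 0.15 (DSTN and BFSP1). POLR3F and DZANK1 differed by 0.36, and VPS16 and PCED1A by 0.44. The genes of these latter pairs overlap at their starts, so no stretch lies between them and in front of both. DZANK1 was also low, at a mean of 0.531 FPKM (SE of its log2 fold change 0.24). Among the pairs with genes outside the list, only the difference between VPS16 and PCED1A was more than 2 times the larger SE. The stretch between ESF1 and NDUFAF5 holds TGACG once and neither of the other words, while that between PCNA and CDS2 holds TGACG once, CCAAT 3 times and the GC box 4 times.

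To set the shift beside functionally related genes, 21 members were compared with 108 partners coded on other chromosomes, which are subunits of the same complex or, for some members, paralogs or proteins of the same pathway. The 21 members had a median log2 fold change of -0.54 (-0.64 to -0.35). The partners had a median of -0.02 (-0.35 to 0.34), and 63 of the 108 were below 0, where 48.1% of all genes tested were. None was called in either direction or reached an adjusted p under 0.05 with a lower level, where the background was 1.59% called lower, 0.955% called higher and 3.07% lower at the adjusted p, so these counts of 0 are near the background. Each of the 21 members had a log2 fold change lower than every one of its partners, and the median difference from the partners' median was -0.49 (-0.70 to -0.22). Partners of different members are not independent of each other, and all share the same 6 libraries. The members were listed with this contrast known, and partners on chromosome 20 were left out. How far the gap between members and partners rests on this choice of genes was not tested, and nothing further is read from it.

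In the spliceosome, SNRPB was at -0.52 while the 6 other Sm proteins ran from -0.04 (SNRPF) to 0.06 (SNRPD2). SNRPB2, a protein of the U2 particle, was at -0.48 and its 8 partners ran from -0.11 (SF3B4) to 0.01 (SF3B1). CRNKL1, of the complex around PRPF19 that activates the spliceosome, was at -0.63 and its 6 partners ran from -0.05 to 0.11. These members of the spliceosome were lower than each partner measured. NOP56, the core protein of box C/D particles that guide RNA methylation, was at -0.56, and FBL, NOP58 and NHP2L1 ran from -0.03 to 0.06.

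The proteasome gave the longest list of partners. PSMF1, a regulator of the 20S core, was at -0.57 and 13 core subunits ran from -0.09 (PSMB5) to 0.13 (PSMB7). RBCK1 was at -0.58, and its partners in the linear ubiquitin ligase were at -0.08 (RNF31) and 0.20 (SHARPIN). For DDRGK1, at -0.62, the partners ran from -0.09 (UFL1) to 0.34 (CDK5RAP3). CDK5RAP3 was the partner furthest above 0, at 31.4 ± 0.457 FPKM in shNT and 39.7 ± 0.764 FPKM in those labelled shGPR81 (SD, n = 3 each, limma adjusted p = 0.0078), without passing the fold of 1.5. NSFL1C, the p97 cofactor p47, was at -0.46, and VCP (p97), UFD1L and NPLOC4 ran from -0.05 to 0.05.

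Enzymes and the mitochondrial ribosome were examined in the same way. CSNK2A1 was at -0.64 while CSNK2A2, the paralogous catalytic subunit, was at -0.16 and CSNK2B, the regulatory subunit, at 0.01. IDH3B, a subunit of the NAD-dependent isocitrate dehydrogenase of the citric acid cycle, was at -0.57, against -0.16 for IDH3A and -0.03 for IDH3G. NAA20, the catalytic subunit of an N-terminal acetyltransferase, was at -0.56, and its auxiliary subunit NAA25 at -0.20. TRMT6 and TRMT61A, the subunits of the tRNA adenosine methyltransferase, were at -0.57 (SE 0.061) and -0.35 (SE 0.13). MRPS26, of the small mitochondrial ribosomal subunit, was at -0.54 and 11 other proteins of that subunit ran from -0.13 to 0.01.

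In replication, PCNA was at -0.44 and its 8 partners, the clamp loader RFC1 to RFC5, FEN1, LIG1 and POLD1, ran from -0.07 (RFC2) to 0.23 (LIG1). MCM8 was at -0.42, and MCM9 and the replicative helicase MCM2 to MCM7 ran from -0.06 to 0.10. POLR3F, at -0.39, came near to POLR3B at -0.31, the lowest of 8 RNA polymerase III subunits. In transport, SEC23B of the COPII coat was at -0.49 and its 9 partners ran from -0.20 (its paralog SEC23A) to 0.10 (SEC24D). SNX5 of the retromer-linked coat was at -0.52 against -0.08 (VPS35) to 0.06 (VPS29), and VPS16 at -0.63 against -0.17 (VPS41) to 0.12 (VPS11). NXT1 was at -0.35 against -0.03 for NXF1, and TBC1D20, a Rab GTPase-activating protein, was at -0.42 against -0.03 and 0.02 for the RAB3GAP subunits.

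**Figure D5:**
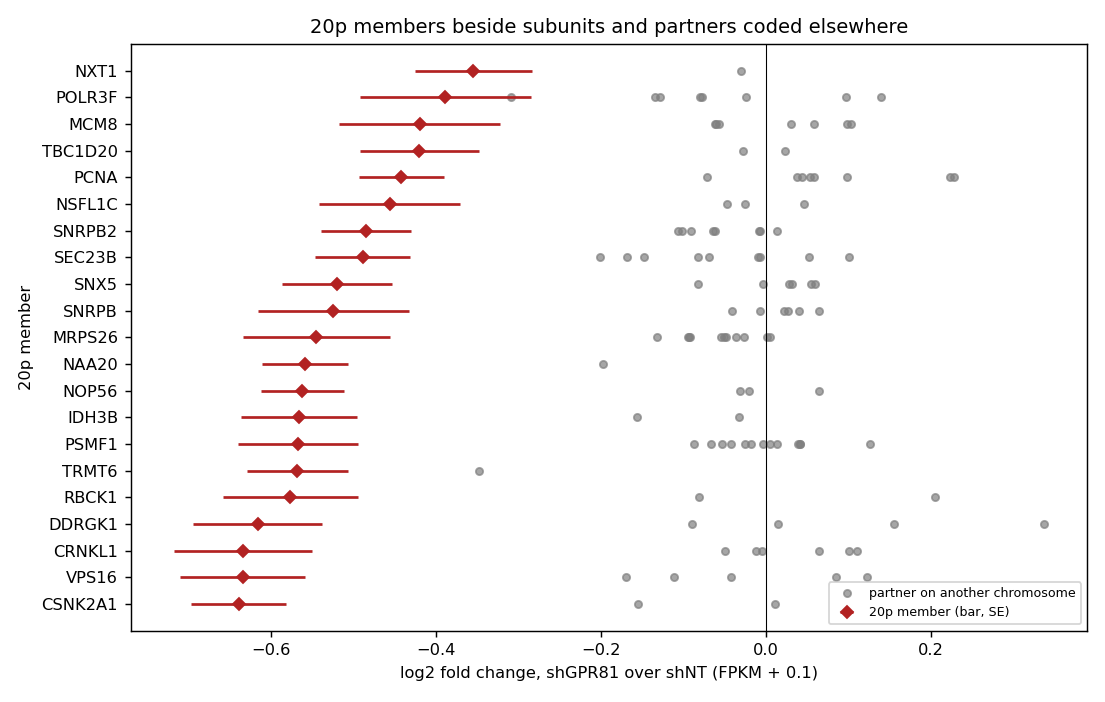
Log2 fold change (x axis) of 21 members (red diamonds, bar for the SE) and of 108 partners on other chromosomes (grey points), 1 row per member. All diamonds lie to the left of the partners in their row, and the partners lie around 0.

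The members were finally set beside the rest of the chromosome. Of 216 genes of the table on 20p, 121 were tested, and 67 of the others were at 0 in every library. The 61 tested genes that are not members had a median log2 fold change of -0.44, and 53 (86.9%) were below 0, against 48.1% of all genes tested. In 41 (67.2%) the groups were apart with the lower level in those labelled shGPR81, against 12.7%. Of the 61, 16 (26.2%) were called lower and 2 higher, against 1.59% and 0.955%. The 28 at 5 FPKM or more had a median of -0.50, and 11 (39.3%) were called lower. The 54 members at that level had a median of -0.54, and 31.5% were called lower. The spread of the 61 was wider, with an SD of 0.431 against 0.218 in the members and a median SE of 0.122 against 0.0757. On the long arm (20q), 270 tested genes had a median of -0.35, so the members' median was lower by 0.17 on the log2 scale, and at 5 FPKM or more by 0.18. The library medians of the 20q genes were -0.37, -0.35 and -0.36 in those labelled shGPR81. Of the 20q genes, 244 (90.4%) were below 0 and 177 (65.6%) had groups apart in that direction. Over all genes tested these shares were 48.1% and 12.7%. A limma adjusted p under 0.05 with a lower level was reached by 115 (42.6%), against 3.07% of all genes tested. On 20q 17 genes (6.30%) were called lower, against 30% of the members and 1.59% of all genes tested. Of the 187 20q genes at 5 FPKM or more, 96.8% were below 0, 81.8% had groups apart and 57.2% reached the adjusted p. For the 54 members at that level these shares were 100%, 100% and 85.2%. Called lower at that level were 6.42% of the 20q genes and 31.5% of the members. How far the members on 20p and the genes on 20q differ was not tested, since the members were chosen on this contrast.

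Among genes of the arm outside the list, those with the lowest and highest log2 fold changes at a mean of 1 FPKM or more were examined. ISM1, which encodes the secreted protein isthmin and lies between BTBD3 and ESF1, was at 5.87, 6.65 and 6.23 FPKM in shNT and at 2.44, 2.70 and 2.79 FPKM in the libraries labelled shGPR81 (log2 fold change -1.21, SE 0.095). THBD, the endothelial thrombin receptor thrombomodulin, was at 8.70 ± 1.03 against 4.54 FPKM (-0.92), CST7, cystatin F, was at -1.06 and ANKEF1 at -0.76. ZNF337-AS1 was at -1.21 and overlaps ZNF337, at -0.55, on the other strand, and whether strand was used in counting is not stated. On the other side, CST1 was at 5.52, 6.28 and 6.56 against 12.3, 12.1 and 11.9 FPKM (0.97) and CST4 at 7.14, 8.44 and 8.09 against 15.3, 13.4 and 15.4 FPKM (0.89). These salivary cystatins were the 2 genes of the arm called higher. They are close paralogs, with CST2 (0.23), so reads could be divided between them. CST3, cystatin C, next to them, was at 261.8 ± 45.6 against 260.5 ± 25.7 FPKM (SD, n = 3 each), a log2 fold change near 0 whose sign turned with the processing (-0.15 to 0.10). BMP2, a bone morphogenetic protein, was at 0.20.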

How the data were processed

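RNA of MDA-MB-231 cells (3 shNT and 3 shGPR81 libraries) was read on an Illumina instrument. The authors deposited FPKM, 1 value per gene symbol and library. Per the labels, TopHat2 2.0.13, Bowtie2 2.2.3, SAMtools 0.1.19 and Cuffnorm 2.2.1 were used. The labels name the mouse build mm10, while the study's methods name the human genome hg19, which was used here because the cells and symbols are human. The annotation and use of strand in counting are not given in the sources used here.

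The 14349 genes with 3 or more of the 6 libraries at 0.1 FPKM or above were fitted as log2(FPKM + 0.1) with limma 3.58.1 (lmFit, eBayes with trend, no block) in R 4.3.3. Calls needed a fold change above 1.5 together with p under 0.05 after Benjamini-Hochberg adjustment. Log2 fold changes are on the log2(FPKM + 0.1) scale, which understates changes of low genes. Positions came from GENCODE release 44 mapped to GRCh37. Of the symbols, 22306 matched directly and 1351 by synonym. The arms were divided at the run of N bases that starts at 26319570. Near-identical stretches were sought with blastn 2.17.0. The fit was tested on simulated data. Of 15931 genes, 4124 gave whole reads (within a relative tolerance of 0.0001 and up to 200 reads in a library), none of them a member, and no count model was run. No replicates were alike to within counting noise (chi-square per gene 2.39 to 3.30 between replicates, with 1 for noise alone).

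The members and lists were chosen with earlier results of these data known. Named members were the 10 lowest and 10 highest log2 fold changes, the 5 highest and 3 lowest levels, the first and last along the arm and all with partners. Named genes outside the list were the 5 lowest and 5 highest at a mean of 1 FPKM or more. Others were named after their values were seen.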

Additional observations from a re-analysis of the deposited data

How the results depend on the processing

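The members' median log2 fold change of -0.53 was -0.49 with a pseudocount of 1 and -0.56 to -0.50 when 1 library was left out, and in the other alternatives run (a 1 FPKM filter, no filter, a pseudocount of 0.01, median centring over all genes or outside chromosome 20, quantile normalization) it moved by less than the spread between libraries. The members lower in direction numbered 57 to 59 in every alternative, those called lower 12 to 22, and the difference between the members' and the 20q median was -0.19 to -0.16. Over all genes tested, 228 were called lower and 137 higher. With a pseudocount of 1 these were 142 and 75, and when 1 library was left out 121 to 256 and 65 to 152. The replicate numbers were not taken to pair the libraries: deviations of same-numbered libraries correlated at 0.12, 0.02 and 0.01 across genes. Across genes at 5 FPKM or more these correlations were 0.15, 0.11 and -0.04. With a replicate block, 18 members and, over all genes, 197 lower and 115 higher were called. In this balanced design a block changes only the errors, so the log2 fold changes and their directions stayed the same by construction. HCAR1 could not be tested under the 1 FPKM filter, and KIF16B was dropped by it. Among single genes named by the rule, PLCB4 and CST3 did not keep their sign. Depth is not known for the members, and values of those under 1 FPKM, such as KIF16B, rest on few reads.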
